A study of Mus musculus with 24 samples.

Results

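Myelin genes of oligodendrocytes were followed across hypothalamic RNA of experimentally overfed (ExpOF) and control mice. The genes were Mbp, Mog, Mag, Mobp, Cnp, Cldn11, Mal, Opalin and Ermn. They were chosen by symbol as structural myelin genes of mature oligodendrocytes, and they are 9 of the 55471 genes counted. All 9 were among the 18992 genes that passed the expression filter. The mice were adult, chow-fed male C57BL/6 J mice of wild-type genotype, each with a catheter in the stomach. ExpOF mice received a liquid diet with sucrose through the catheter, raised stepwise to 150% of baseline energy intake on day 9, while control mice received sterile water at the same flow rates. All mice could eat chow ad libitum. One set of mice was killed at the end of overfeeding (d14), and the others 3 days later (d14+3, day 17), after water alone had been infused in both groups. Each of the 4 groups held 6 mice with 1 bulk library per mouse, and the values below are from 23 libraries, without Control d14 replicate 4, which was taken from mean expression values to be the mouse that the study left out. Hypothalami were taken whole, so that the values are averages over every cell type present, and fewer oligodendrocytes cannot be told apart from less myelin RNA per oligodendrocyte.

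Oligodendrocytes are the glial cells that wrap axons of the central nervous system in myelin, a compacted stack of plasma membrane that speeds conduction and feeds the axon. Precursor cells expressing Pdgfra pass through a newly formed stage and then switch on the myelin genes under transcription factors such as Olig2, Sox10 and Myrf. In the hypothalamus, fibre tracts and the median eminence contain myelin, and the precursors of the median eminence are known to respond to nutritional signals. Mbp and Mobp encode basic proteins that hold the cytoplasmic faces of the membrane together. Mog, Mag and Opalin encode membrane glycoproteins, with Mog on the outer surface and Mag facing the axon. Cnp encodes an enzyme of the non-compacted myelin that keeps its cytoplasmic channels open, and Ermn encodes ermin, an actin-binding protein of late oligodendrocytes. Cldn11 encodes the claudin of myelin's tight junctions, and Mal a proteolipid that sorts membrane rafts.

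Total counts ranged from 8928182 to 33217143 in ExpOF d14, from 21162460 to 34848437 in Control d14, from 17199077 to 31860266 in ExpOF d14+3 and from 20965168 to 27744316 in Control d14+3. The 9 genes took between 0.425% and 0.662% of the counts of a library. RNA integrity numbers (RIN), as labelled, had a median of 9.7 in ExpOF d14, 9.6 in Control d14, 9.55 in ExpOF d14+3 and 8.6 in Control d14+3. The paper gave poor RNA quality as the reason for removing a Control d14 mouse. Replicate 4, inferred to be that mouse, had a labelled RIN of 9.8, and the other Control d14 mice ranged from 8 to 10. The RIN labels therefore do not show which mouse was removed. According to the labels, the mice came from a July and a September cohort, with 3 mice of each group in each. With replicate 4 left out, replicates 1 and 5 were the Control d14 mice of the September cohort in the fit. The labels describe separate mice, and libraries of a group always differed by more than sampling noise (chi-square of the counts per degree of freedom at least 2.952 over 60 pairs). The tissue label was checked with marker genes: the 10 hypothalamus identity genes summed to between 454.7 and 1196 CPM (counts scaled to a common total), and none of them was at 0 in all libraries. The 6 Schwann cell genes of peripheral myelin summed to between 23.18 and 44.76 CPM, against 4188 to 6779 CPM for the 9 genes described here. Left-out Control d14 replicate 4 stood apart in genes outside myelin, with ribosomal protein genes at a mean log2 CPM of 8.14 against 5.663 to 6.702 in the other libraries. It also stood apart within the 9 genes. In a scaling of all 24 libraries it had the highest Mog, Cnp and Opalin and the lowest Ermn and Cldn11. With it in the fit, the log2 fold change of Opalin between ExpOF and control mice on d14 was -0.70 in place of -0.41.

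Promoter sequences (RefSeq, GRCm38.p6, the 250 bases before the annotated start) were found for 8 of the 9 genes. They were searched on both strands for ACAAAG, a core motif of SOX factors such as Sox10, and for CTGGCAC, a core motif of Myrf. ACAAAG, or its reverse complement CTTTGT, was present in 4 of the 8 windows and in 16.5% of all 32851 windows in the table. CTGGCAC was present in 2 of the 8 and in 4.19% of all windows, and both were present in 2 of the 8 and in 0.691% of all. A match describes the letters of a window and is not a binding site. The windows of 4 genes are shown, those of Mag and Cnp because they hold both motifs, and those of Opalin and Ermn because these 2 genes had the least similar profiles across mice. Capitals mark the matches, at -126 (CTTTGT) and -68 from the start in Mag, at -167 (ACAAAG) and -81 in Cnp and at -139 in Opalin. The Mag window lies at chr7:30914864-30915113 (minus strand), that of Cnp at chr11:100574689-100574938 (plus strand), that of Opalin at chr19:41077114-41077363 (minus strand) and that of Ermn at chr2:58052865-58053114 (minus strand).
Mag: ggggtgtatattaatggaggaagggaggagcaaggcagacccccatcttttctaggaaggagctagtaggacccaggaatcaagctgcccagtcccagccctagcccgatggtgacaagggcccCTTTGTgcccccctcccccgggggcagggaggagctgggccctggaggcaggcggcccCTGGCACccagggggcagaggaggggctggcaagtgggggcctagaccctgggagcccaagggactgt
Cnp: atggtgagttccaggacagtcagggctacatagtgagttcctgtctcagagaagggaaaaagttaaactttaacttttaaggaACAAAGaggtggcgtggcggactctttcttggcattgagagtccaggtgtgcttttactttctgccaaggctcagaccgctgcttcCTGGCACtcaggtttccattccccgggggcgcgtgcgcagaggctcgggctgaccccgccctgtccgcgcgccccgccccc
Opalin: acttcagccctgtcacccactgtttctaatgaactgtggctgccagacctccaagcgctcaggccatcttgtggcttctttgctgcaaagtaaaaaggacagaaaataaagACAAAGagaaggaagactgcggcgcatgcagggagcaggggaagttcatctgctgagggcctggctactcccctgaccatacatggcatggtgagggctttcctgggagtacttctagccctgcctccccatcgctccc
Ermn: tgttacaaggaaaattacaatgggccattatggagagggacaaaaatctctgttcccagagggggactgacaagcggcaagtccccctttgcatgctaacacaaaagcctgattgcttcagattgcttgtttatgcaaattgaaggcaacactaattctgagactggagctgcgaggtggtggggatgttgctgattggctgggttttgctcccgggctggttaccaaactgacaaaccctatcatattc
The Mobp window held 6 matches to the SOX motif, all as CTTTGT, and none to the Myrf motif. The windows of Mog, Cldn11, Mal and Ermn held neither.

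The 9 genes lie on 8 chromosomes (mm10). Mbp spans chr18:82475146-82585637 on the plus strand, Mobp chr9:120149707-120181484 on the plus strand, Mog chr17:37010743-37023398 on the minus strand, Mag chr7:30899176-30914832 on the minus strand and Opalin chr19:41061710-41077113 on the minus strand. Cnp spans chr11:100574904-100591729 on the plus strand, Ermn chr2:58045113-58052864 on the minus strand, Cldn11 chr3:31149920-31164324 on the plus strand and Mal chr2:127633226-127656219 on the minus strand. Cnp overlaps Dnajc7 on the opposite strand, whose mean count was 43.7% of that of Cnp. How strand was treated in the counting is not given in the sources used here, so reads in this overlap cannot be assigned with certainty. Genes overlapping Mbp, Mog, Mobp or Ermn had at most 0.312% of their counts, and no gene overlapped Mag, Cldn11, Mal or Opalin.

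Expressed per length of gene, Mbp was the most abundant of the 9 genes, with 354.1 ± 53.2 CPM per kilobase (SD, n = 23 libraries). Mobp followed with 144.8 ± 16.6, so that Mbp was 2.445 times as high. Cnp had 122.3 ± 15.9, Mal 99.8 ± 11.5, Mag 66.9 ± 10.5, Cldn11 60.5 ± 6.99 and Mog 47.8 ± 5.86 CPM per kilobase. Ermn had 20.3 ± 2.69 and Opalin, the lowest, 12.4 ± 2.57 CPM per kilobase. This order of levels was close to the same in every mouse: a gene exceeded the next one in at least 22 of 23 libraries, except that Mag exceeded Cldn11 in 19 of 23. Mbp by itself took between 52.9% and 60.9% of the counts of the 9 genes in a library.

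**Figure D1:**
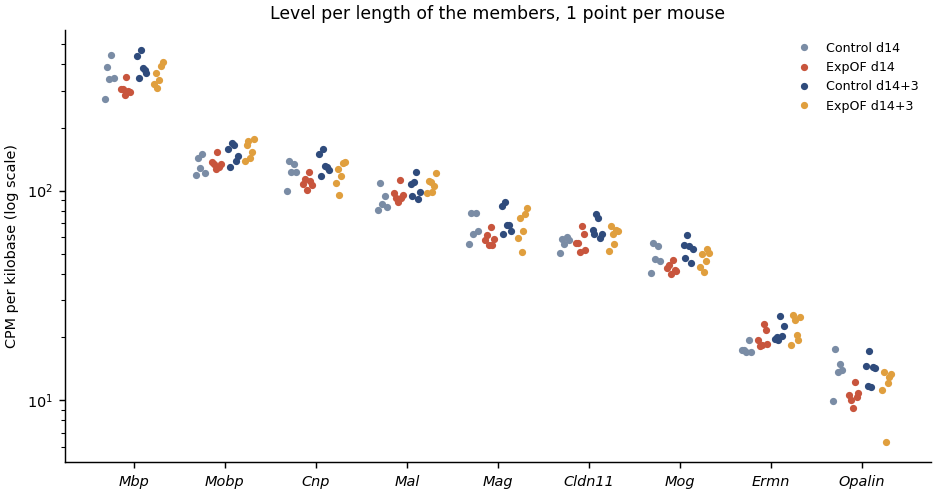
Level of each of the 9 myelin genes per length of gene (CPM per kilobase, log axis), 1 point per library, 23 libraries. Mbp averaged 354.1 CPM per kilobase and Opalin 12.4, and the gap between Mog (47.8) and Ermn (20.3) separates the 7 more abundant genes from the other two.

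The plot of levels by mouse shows how the groups overlap for each gene. Among the basic proteins, Mbp stood at 2309, 3281, 2888, 3754 and 2924 CPM in the 5 Control d14 mice. In the 6 ExpOF d14 mice it ranged from 2426 to 2967 CPM (median 2553). In Control d14+3 it ranged from 2934 to 3976 (median 3230) and in ExpOF d14+3 from 2617 to 3472 CPM (median 2971). Mbp was therefore low and tightly spaced in ExpOF d14, and widely spread in Control d14, where the lowest mouse lay below every ExpOF d14 mouse. Mobp, the other basic protein, stood at 810.1, 985.1, 875, 1022 and 830.6 CPM in Control d14 and from 870.5 to 1049 CPM (median 917.8) in ExpOF d14. On d14+3 its range was 889.6 to 1150 CPM (median 1043) in control and 953.1 to 1204 CPM (median 1087) in ExpOF mice.

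Of the glycoproteins, Mog stood at 69.08, 95.46, 80.44, 92.66 and 78.51 CPM in Control d14 and from 68.14 to 79.67 CPM (median 72.08) in ExpOF d14. On d14+3 Mog ranged from 77.06 to 104.7 CPM (median 91.12) in control and from 69.88 to 89.25 CPM (median 81.81) in ExpOF mice. Mag stood at 226.9, 318.3, 253.1, 320 and 260.8 CPM in Control d14 and from 223.7 to 272.4 CPM (median 238) in ExpOF d14. In both genes the 2 highest Control d14 mice were replicates 2 and 5, and both were above all 6 ExpOF d14 mice. Opalin, a glycoprotein of mature oligodendrocytes, stood at 29.09, 51.46, 39.93, 43.84 and 41.11 CPM in Control d14. In ExpOF d14 it stood at 31.31, 29.33, 27.03, 35.79, 30.43 and 31.79 CPM, so that 4 of the 5 control mice were above every overfed mouse, and control replicate 1 lay within the range of the overfed mice. On d14+3 Opalin stood at 42.87, 34.37, 50.47, 33.91, 42.15 and 41.99 CPM in control and at 32.87, 40.18, 18.52, 35.36, 37.8 and 39.06 CPM in ExpOF mice.

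For the enzyme Cnp, the 5 Control d14 mice had 364, 503, 446, 485.9 and 446.1 CPM and the ExpOF d14 mice 367.7 to 446.2 CPM (median 399.2). On d14+3 the range of Cnp was 427.3 to 575.9 CPM (median 473.3) in control and 345.6 to 497.1 CPM (median 445.3) in ExpOF mice. Ermn ran the other way on d14. It stood at 63.3, 62.91, 61.93, 70.69 and 61.84 CPM in Control d14 and at 70.43, 65.87, 66.63, 83.59, 78.88 and 66.98 CPM in ExpOF d14, where every mouse was above 4 of the 5 controls. On d14+3 Ermn ranged from 70.65 to 91.33 CPM (median 73.01) in control and from 66.91 to 92.33 CPM (median 80.85) in ExpOF mice. Cldn11 stood at 93.69, 109.9, 104.1, 112 and 108.4 CPM in Control d14 and from 95.17 to 126.9 CPM (median 105.2) in ExpOF d14. On d14+3 it ranged from 111.5 to 144.3 CPM (median 118.6) in control and from 95.93 to 127 CPM (median 118) in ExpOF mice. Mal stood at 223.3, 302.5, 240.1, 260.4 and 232.5 CPM in Control d14, from 243.9 to 312.3 CPM (median 259.8) in ExpOF d14, from 253.1 to 341.4 CPM (median 285.6) in Control d14+3 and from 269.9 to 337.1 CPM (median 298.2) in ExpOF d14+3. Control d14 replicate 1 had the lowest level of its group for Mbp, Mog, Mag, Mobp, Cnp, Cldn11, Mal and Opalin, that is for each of the genes except Ermn.

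**Figure D2:**
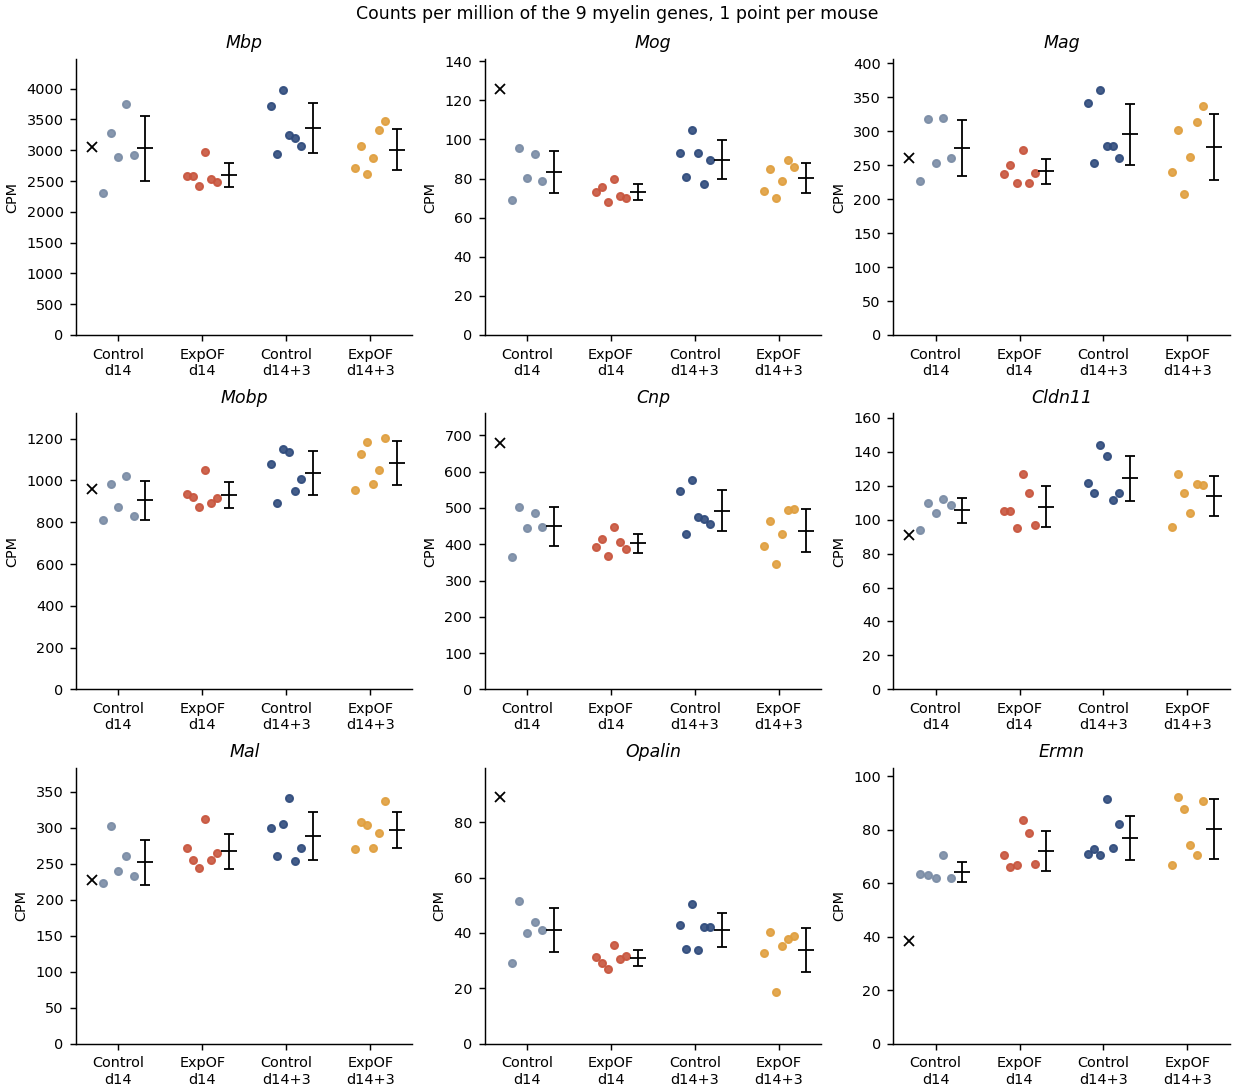
Level of each of the 9 genes (CPM with TMM scaling) in every mouse of the 4 groups, with the group mean and SD as a bar. The black cross is Control d14 replicate 4, taken as the mouse that the study left out, drawn from a scaling of all 24 libraries. The groups overlap for each gene, and the lowest of the 5 Control d14 points is replicate 1 for each gene except Ermn.

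By group mean, 2 orders of levels were seen. Mbp, Mog and Cnp were highest in Control d14+3, followed by Control d14, ExpOF d14+3 and ExpOF d14, with Mbp means of 3361 ± 401, 3031 ± 534, 3012 ± 339 and 2596 ± 191 CPM (SD, n = 6, 5, 6 and 6). Mag and Opalin were also lowest in ExpOF d14 (241.2 ± 18.5 and 30.94 ± 2.92 CPM), but the 2 middle groups of Mag (277.4 ± 48.8 in ExpOF d14+3 and 275.8 ± 41.5 in Control d14) and the 2 control groups of Opalin (41.08 ± 8.07 on d14 and 40.96 ± 6.16 on d14+3) were nearly level. Mobp, Mal and Ermn were highest in ExpOF d14+3, followed by Control d14+3, ExpOF d14 and Control d14, with Mobp means of 1083 ± 104, 1035 ± 104, 930 ± 62.8 and 904.7 ± 94.4 CPM. Cldn11 was highest in Control d14+3 (124.4 ± 13.5 CPM) and lowest in Control d14 (105.6 ± 7.27 CPM). The ranges of neighbouring groups in these orders overlapped for all 9 genes.

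The d14 comparison asks what overfeeding did to the hypothalamus by its last day. On d14, 5 of the 9 genes had a lower fitted level in ExpOF mice than in controls (Mbp, Mog, Mag, Cnp and Opalin) and 4 a higher one (Mobp, Cldn11, Mal and Ermn), with a median log2 fold change of -0.16 against -0.02 over all genes tested. Opalin differed most, with 30.94 ± 2.92 CPM in ExpOF (SD, n = 6) and 41.08 ± 8.07 CPM in control mice (SD, n = 5). Its log2 fold change was -0.41 (SE 0.152, 95% interval -0.72 to -0.09, adjusted p = 0.139), and the two-sided exact permutation test gave p = 0.0238. The log2 fold change of Mbp was -0.22 (SE 0.0985, 95% interval -0.43 to -0.02, adjusted p = 0.160, exact permutation p = 0.102), and that of Mog was -0.19 (SE 0.0842, adjusted p = 0.162, exact permutation p = 0.0649). Mag (-0.19) and Cnp (-0.16) had log2 fold changes of like size and larger adjusted p-values (0.269 and 0.260). Ermn had a log2 fold change of 0.17 in the other direction (SE 0.0892, adjusted p = 0.221), with an exact permutation p of 0.0498. Mobp (0.04, 95% interval -0.12 to 0.20), Cldn11 (0.03) and Mal (0.09) lay nearer to 0, and without ExpOF d14 replicate 4 Mobp was at -0.01 and Cldn11 at -0.04. With each library's trend with gene length removed, Mog was at -0.03, Mbp at -0.36, Cldn11 at 0.17 and Mobp, which turned direction, at -0.043, and the median of the 9 was -0.04. The smallest p the exact test can give here is 0.00216.

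By edgeR's quasi-likelihood test, 0 of the 9 genes passed the adjusted threshold of 0.05 on d14, where 0.00527% of all genes tested did. The Wald test of DESeq2 also called 0 of them, and called 0.99% of the 16766 genes to which it gave an adjusted p. Shares of all genes called by DESeq2 in the other comparisons are likewise of the genes to which it gave an adjusted p. At an unadjusted p under 0.05, 3 of the 9 were lower (Mbp, Mog and Opalin), against 13.6% of all genes tested. The ranges of the groups overlapped for all 9, while those of 2.5% of all genes did not. This comparison turned on 1 mouse: without Control d14 replicate 1, 4220 genes passed the adjusted threshold, and 9.93% of the genes tested passed it as lower in ExpOF mice. Without it 3 of the 9 passed, namely Opalin (log2 fold change -0.50, adjusted p = 0.0259), Mbp (-0.30, adjusted p = 0.0280) and Mog (-0.24, adjusted p = 0.0412). In the 10 fits without another mouse of these 2 groups, none of the 9 passed. That mouse belonged to the September cohort, had a RIN of 8.6, and had the lowest mean of ribosomal protein genes in its group (log2 CPM 5.913 against 6.151 to 6.683). Control d14 replicate 5, of the same cohort, had a lower RIN (8) and the highest Mbp of the group. Within the July cohort the median log2 fold change of the 9 genes was -0.20 and within the September cohort -0.09. That of Opalin was -0.54 and -0.21. The direction of all 9 on d14 was the same in both cohorts, but the September fit held only replicates 1 and 5 as Control d14 mice. For Mbp these stood at 2309 and 3754 CPM, the lowest and highest of that group.

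**Figure D3:**
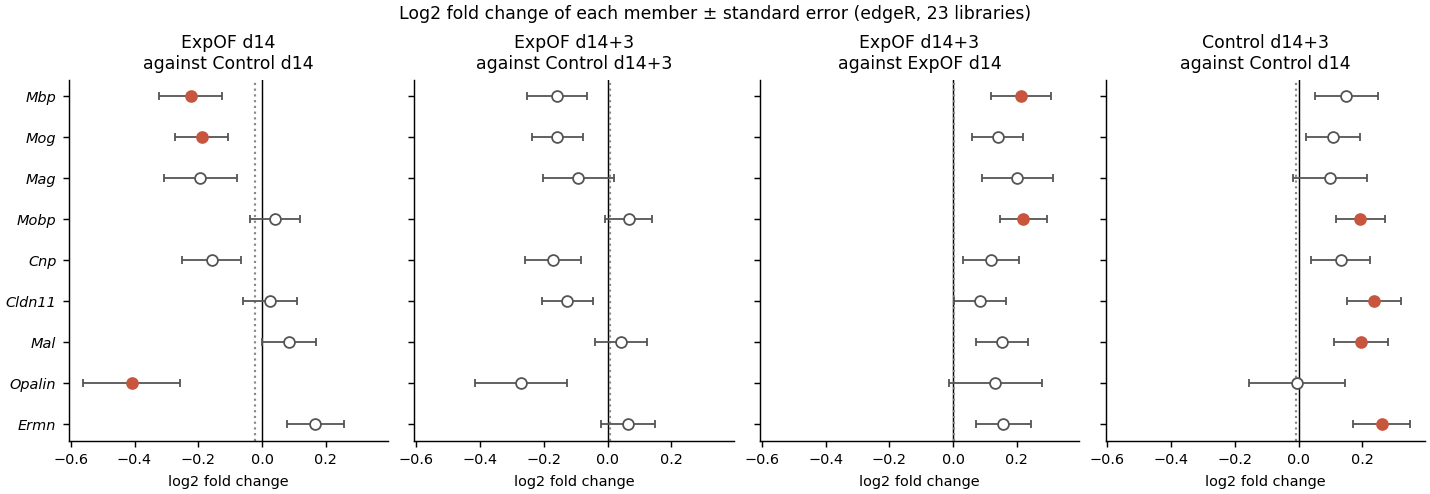
Log2 fold change with its standard error (bar) for each of the 9 genes in the comparisons of ExpOF with control mice and of d14+3 with d14. Filled red points have an unadjusted p under 0.05, and the dotted line is the median over all genes tested. Opalin (-0.41), Mbp (-0.22) and Mog (-0.19) are the 3 such points on d14, and none is seen on d14+3.

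The d14+3 comparison asks what remained 3 days after the infusion of diet had ended. On d14+3, the fitted level of Mbp, Mog, Mag, Cnp, Cldn11 and Opalin was lower in ExpOF than in control mice and that of Mobp, Mal and Ermn higher, with a median log2 fold change of -0.13 against 0.01 over all genes tested. The 5 genes with lower values on d14 were again lower, with log2 fold changes of -0.16 (Mbp), -0.16 (Mog), -0.09 (Mag), -0.17 (Cnp) and -0.27 (Opalin). Opalin was at 33.97 ± 8.01 CPM in ExpOF (SD, n = 6) and 40.96 ± 6.16 CPM in control mice (SD, n = 6), with an adjusted p of 0.735 and an exact permutation p of 0.121. Without ExpOF d14+3 replicate 3, the mouse at 18.52 CPM, the log2 fold change of Opalin was -0.15. Cldn11 was at -0.13, and Mobp (0.07), Mal (0.04) and Ermn (0.06) were close to 0, with 95% intervals that held 0 for each of the 9 genes. By edgeR, 0 of the 9 passed the adjusted threshold (0% of all genes did), 0 had an unadjusted p under 0.05 (7.11% of all genes tested did), and DESeq2 called 0 (0.343% of all genes). The ranges of the groups overlapped for all 9, and did not for 0.421% of all genes. Mobp, Mal and Ermn were higher in ExpOF mice within the July cohort (0.18, 0.19 and 0.26) and lower within the September cohort (-0.06, -0.12 and -0.16), while the other 6 were lower in both.

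Whether the difference between ExpOF and control mice itself differed between the days was tested with the interaction term. The value of ExpOF relative to control mice was higher on d14+3 than on d14 for 5 genes and lower for 4, by log2 values between -0.15 and 0.14 and a median of 0.03. By edgeR, 0 of the 9 and 0% of all genes passed the adjusted threshold, with adjusted p-values of at least 0.903 for the 9, and 0 had an unadjusted p under 0.05, against 4.42% of all genes. DESeq2 called 0 of the 9 in this test too.

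All 9 genes had a higher fitted level in ExpOF mice on d14+3 than on d14, and 8 of the 9 in control mice. In ExpOF mice the log2 fold changes ranged from 0.08 to 0.22 with a median of 0.15, against 0.00 over all genes tested. Within the July cohort the median was 0.25 and within the September cohort 0.14. Mobp was at 1083 ± 104 CPM on d14+3 and 930 ± 62.8 CPM on d14 (SD, n = 6 each), a log2 fold change of 0.22 (SE 0.0741, adjusted p = 0.298), with an exact permutation p of 0.0152. For Mobp the log2 fold change was 0.36 within the July and 0.08 within the September cohort. Mbp had a log2 fold change of 0.21 (exact permutation p = 0.0238, adjusted p = 0.559). Mobp and Mbp were the 2 of the 9 that were higher at an unadjusted p under 0.05, against 5.39% of all genes. By edgeR, 0 of the 9 passed the adjusted threshold, as did 0% of all genes, and DESeq2 called 0 of the 9 and 1.2% of all genes. The ranges of the groups overlapped for each of the 9, as they did for all but 0.832% of all genes.

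In control mice, which received water throughout, the largest differences between the days were those of Ermn and Cldn11. Ermn was at 76.86 ± 8.25 CPM on d14+3 (SD, n = 6) and 64.13 ± 3.72 CPM on d14 (SD, n = 5), a log2 fold change of 0.26 (SE 0.0891, adjusted p = 0.180, exact permutation p = 0.00433). Cldn11 was at 124.4 ± 13.5 and 105.6 ± 7.27 CPM, a log2 fold change of 0.24 (SE 0.0848, adjusted p = 0.208, exact permutation p = 0.0108). For both genes 5 of the 6 Control d14+3 mice were above every Control d14 mouse. Mobp (0.19, adjusted p = 0.269) and Mal (0.20, adjusted p = 0.320) followed, Mbp, Mog, Mag and Cnp lay between 0.10 and 0.15, and Opalin was at -0.00 (95% interval -0.32 to 0.31). The median over the 9 was 0.15, against -0.01 over all genes. It was 0.12 within the July and 0.19 within the September cohort, where Control d14 held replicates 1 and 5 only. Without Control d14 replicate 1 the median was 0.07, with Mbp at 0.07, Mog at 0.05 and Cnp at 0.07, and without Control d14+3 replicate 3 the log2 fold change of Mag was 0.03. At an unadjusted p under 0.05, 4 of the 9 were higher (Mobp, Cldn11, Mal and Ermn), against 6.81% of all genes. By edgeR, 0 of the 9 passed the adjusted threshold, which 1.15% of all genes passed, and DESeq2 called 0 (3.24% of all genes). The groups overlapped for all 9, and did not for 1.58% of all genes. Mice of the 2 time points were killed on different days, so the time since overfeeding cannot be told apart from anything else that differed between those days.

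Lists of regional marker genes were compared between the days as well. The hypothalamus identity list held Nkx2-1, Sim1, Pomc, Agrp, Avp, Oxt, Hcrt, Hdc, Pmch and Nr5a1, many of them neuropeptide genes. The study reported lower Agrp in ExpOF mice on d14, so this list does not mark the dissected region alone. The 10 hypothalamus identity genes had lower fitted levels on d14+3 in both comparisons (10 of 10 each, median log2 fold change -0.30 in ExpOF and -0.48 in control mice), and their summed level had a median of 687.3 CPM (range 613.5 to 851.7) in ExpOF d14, 538.3 (454.7 to 655.1) in ExpOF d14+3, 816.7 (634.7 to 1196) in Control d14 and 607.3 (508.7 to 802.8) in Control d14+3. By edgeR 2 of the 10 were called lower in control mice (0.195% of all genes), with 6 lower at an unadjusted p under 0.05 (5.93% of all genes), and 0 in ExpOF mice, where 3 had an unadjusted p under 0.05 and were lower (2.4% of all genes) and DESeq2 called 0. In control mice DESeq2 called 3 of the 10 as lower, where it called 3.24% of all genes. The summed level of 8 forebrain genes of neighbouring regions had medians of 124.2 CPM (range 89.25 to 166.4) in ExpOF d14 and 264.2 (184.2 to 393.1) in ExpOF d14+3, and of 130.2 (83.8 to 299.5) and 290.7 (192.2 to 428.4) in the control groups. Gene by gene, this list was split in ExpOF mice, with 4 higher and 4 lower on d14+3 (median log2 fold change -0.07, range -0.40 to 1.86). In control mice 5 of the 8 were higher (median 0.23). EdgeR called 0 of them in ExpOF and control mice (0% and 1.15% of all genes). DESeq2 called 2 as higher in ExpOF and 1 in control mice (1.2% and 3.24% of all genes). On d14, 8 of the 10 hypothalamus identity genes were lower in ExpOF than in control mice (median log2 fold change -0.21). At an unadjusted p under 0.05 were 6 of the 10, with 5 lower and 1 higher (26.7% of all genes in either direction). EdgeR called 0 of the 10 and DESeq2 called 1 as lower (it called 0.99% of all genes). Of the markers of other cells, 2 of 8 neuron genes were called higher on d14+3 in control mice by edgeR (0.953% of all genes) and 3 by DESeq2 (which called 3.24% of all genes). In ExpOF mice edgeR called 0 and DESeq2 1 of them (0% and 1.2% of all genes). All 6 ependymal and tanycyte genes were lower on d14+3 in control mice, and 5 of the 6 in ExpOF mice with 0 called. In control mice 1 of them was called by edgeR (0.195% of all genes were called lower) and by DESeq2 (3.24% of all genes were called). Neuron genes summed to a median of 4001 CPM in Control d14 (range 3797 to 4048) and 4414 in Control d14+3 (range 4057 to 4536). Astrocyte, microglia and endothelial genes had 0 calls between the days by either tool. Ribosomal protein genes also differed between groups, with a median of the mean log2 CPM of 6.075 in ExpOF d14, 6.501 in Control d14, 5.944 in ExpOF d14+3 and 6.243 in Control d14+3. The part of the regional and cell type markers in the myelin gene values was not tested. With the ribosomal protein mean as a covariate, a fit added after the data were seen, the median log2 fold change of the 9 genes was -0.01 on d14 and 0.02 on d14+3, where Mbp, Mog, Mag, Cnp and Ermn turned direction.

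Cohort and RNA integrity were fitted beside the groups. All 9 genes had lower values in the September than in the July cohort, by a median log2 difference of -0.04 (range -0.09 to -0.01), of which 0 passed the adjusted threshold in edgeR or DESeq2 and 0 had an unadjusted p under 0.05, where 0% and 3.88% of all genes did. Per unit of RIN within groups, 8 of the 9 had a positive slope, with a median log2 slope of 0.04. By edgeR, 0 of the 9 slopes passed the adjusted threshold (0% of all genes) or had an unadjusted p under 0.05 (6.42% of all genes), and DESeq2 called 0 of the 9 (0.0158% of all genes). The median slope was 0.15 within the July and -0.15 within the September cohort.

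Other genes of the lineage were read from lists of stage markers. Of 30 other mature oligodendrocyte genes, 19 had lower and 11 higher values in ExpOF mice on d14 (median log2 fold change -0.08), and 21 lower and 9 higher values on d14+3 (median -0.06). None of the 30 passed the adjusted threshold in edgeR on either day, with 8 and 2 at an unadjusted p under 0.05, where 26.7% and 7.11% of all genes tested were. Between the days, 28 of the 30 were higher on d14+3 in ExpOF mice (median 0.13) and 26 of the 30 in control mice (median 0.14), with 0 called by edgeR (0% and 1.15% of all genes) and with 6 and 11 higher at an unadjusted p under 0.05 (5.39% and 6.81% of all genes). DESeq2 called 0 of the 30 in ExpOF mice and 3 in control mice, where it called 3.24% of all genes. Of the 10 oligodendrocyte transcription factors 6 were lower on d14 and 7 on d14+3. Of the 10 genes of newly formed oligodendrocytes 7 and 6 were lower. Of the 10 precursor genes, 7 and 8 were instead higher. The median log2 fold change of the precursor genes was 0.16 on d14 and 0.02 on d14+3. By edgeR, 0 genes of these 3 lists were called on either day, with 4, 1 and 4 of 10 at an unadjusted p under 0.05 on d14 (26.7% of all genes) and 0 in each on d14+3, and DESeq2 called 0 in these lists and in the 30 mature genes. Of the 4 precursor genes at that p on d14, 2 were higher and 2 lower. Of the 4 transcription factors, 1 was higher and 3 were lower. Of the lists of other cells, those of neurons, astrocytes, microglia and endothelium were split on d14 (5 of 8, 4 of 8, 2 of 7 and 3 of 6 higher in ExpOF mice), while all 6 ependymal and tanycyte genes and all 5 choroid plexus genes tested had lower values, again with 0 called by edgeR. In these 6 lists 3, 3, 2, 1, 3 and 3 genes had an unadjusted p under 0.05, beside 26.7% of all genes. DESeq2 called 0 of them too, but gave 3 of the 5 choroid plexus genes no adjusted p. Choroid plexus genes summed to medians between 38.71 and 46.58 CPM in the 4 groups, but reached 3049 CPM in a Control d14 and 1309 CPM in an ExpOF d14+3 library, and their part in the myelin gene values was not tested.

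Of the lineage factors on d14, Olig1 had a log2 fold change of -0.37 (exact permutation p = 0.0303, adjusted p = 0.145), Olig2 of -0.15, Sox10 of -0.14 and Myrf of -0.01. The precursor marker Pdgfra, a growth factor receptor, was at 0.14. On d14+3 these 5 genes lay between -0.11 and 0.11. The genes with the smallest unadjusted p of each list on d14 were Tppp, a tubulin-binding protein (0.23), the homeobox factor Nkx6-2 (-0.52), Tmem163 (-0.21), the precursor gene C1ql1 (-0.42) and Pmp22, a membrane protein of peripheral myelin (-0.28), with adjusted p-values between 0.135 and 0.146. These 5 were picked for that p, and without Control d14 replicate 1, when 22% of all genes passed the adjusted threshold, they and Olig1 did so too (adjusted p of at most 0.0428). On d14+3 they were Aspa, which cleaves N-acetylaspartate (-0.18, adjusted p = 0.610), the homeobox factor Nkx2-2 (-0.25), the kinase Fyn (-0.11), C1ql1 (-0.22) and Pmp22 (-0.26, adjusted p = 0.585). Of the 6 peripheral myelin genes only 3 passed the expression filter.

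**Figure D4:**
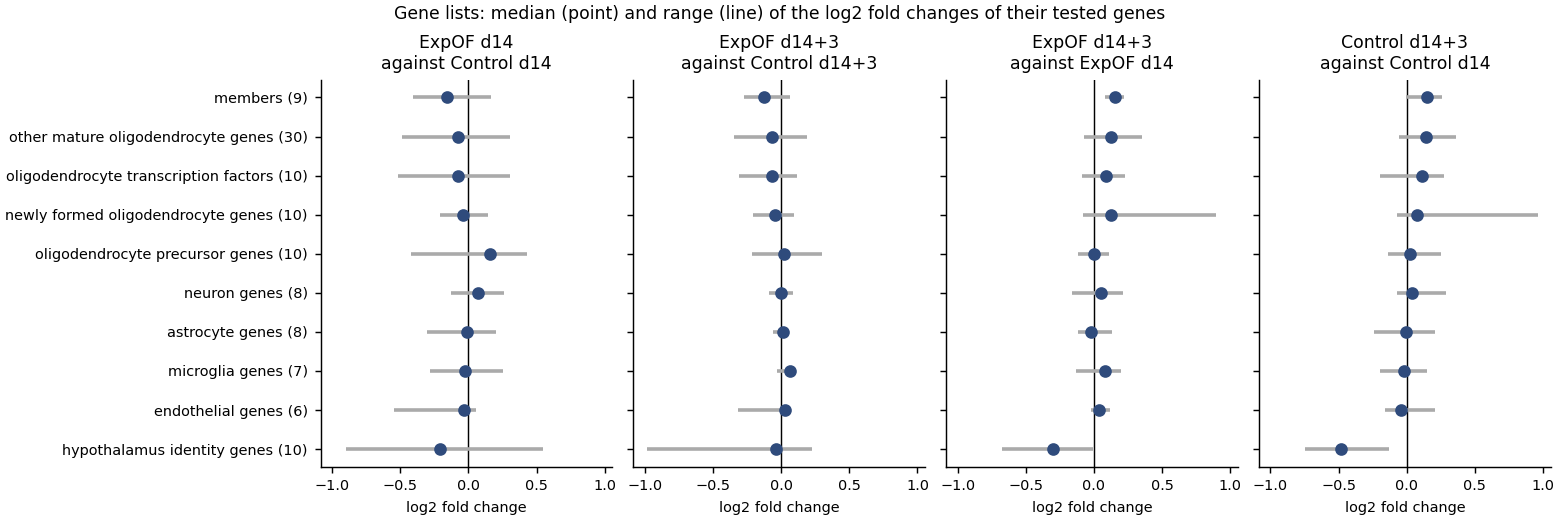
Median log2 fold change (point) and range (line) of the 9 genes and of the marker lists in the 4 comparisons, with the number of genes tested in parentheses. The 9 genes have medians of -0.16 and -0.13 in ExpOF against control mice and of 0.15 in both comparisons of days. The precursor list lies at 0.16 on d14 and at 0.02 on d14+3.

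Across mice, the 9 genes varied together to an unequal degree. After removing group means, 35 of the 36 pairs of genes had a positive correlation of log2 CPM over 23 libraries, with a median Pearson r of 0.66. Of the 36 pairs, 28 passed an adjusted p of 0.05 in a permutation test that shuffled mice within groups (100000 resamples, Benjamini-Hochberg over the 36 pairs). Pairs of other genes were not put through this test, so the count is not shown to be particular to the 9 genes. The closest pair was Mag and Cnp (r = 0.959, rho = 0.909, permutation p = 1e-05 for both, the smallest that the resamples can give, adjusted p = 4.5e-05 and 6e-05). Their r was 0.951 without the 2 mice farthest from the median of Mag, 0.964 in the July cohort (n = 12), 0.972 in the September cohort (n = 11) and 0.711 with all 24 libraries. Mbp and Mag had r = 0.926 (rho = 0.935), and Mobp and Mal r = 0.887 (rho = 0.921), both with a permutation p of 1e-05 and an adjusted p of 4.5e-05. Without the 2 mice farthest from the median of the first gene, r was 0.96 for Mbp and Mag and 0.897 for Mobp and Mal. These points share a library and its scaling, so that depth and composition of a library enter both genes of a pair.

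Ermn stood apart from the others. Of the 8 pairs with Ermn, 3 passed the adjusted threshold, against 25 of the 28 pairs without it. Opalin and Ermn had r = -0.0712 (rho = 0.0287, adjusted permutation p = 0.859 and 0.937). Mobp and Ermn had r = 0.598 (rho = 0.486, adjusted permutation p = 0.00894 and 0.0356), but r was 0.271 within the July cohort (n = 12) and 0.761 within the September cohort (n = 11). Splitting the genes by the sign of their fold changes, a split made after these signs were seen, the 5 genes lower on both days (Mbp, Mog, Mag, Cnp and Opalin) had pairwise r between 0.733 and 0.959 (median 0.884, 10 pairs). The 3 genes higher on both days (Mobp, Mal and Ermn) had r between 0.562 and 0.887, and pairs across these sets had a median of 0.558 (15 pairs, from -0.0712 to 0.726). The mean of 81 ribosomal protein genes had r between 0.553 and 0.641 with the 5 genes, between -0.303 and 0.235 with the 3, and 0.422 with Cldn11. Its part in the pairwise values was not tested.

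**Figure D5:**
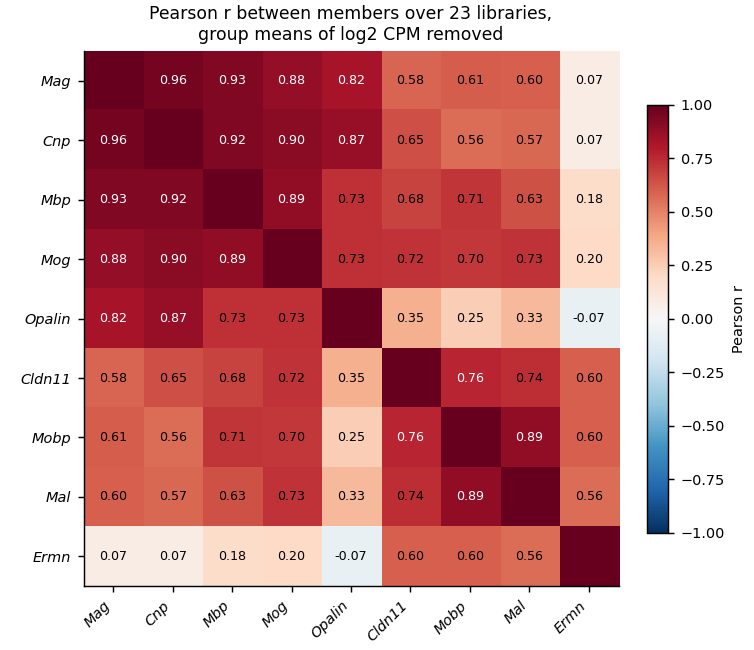
Pearson r of log2 CPM for each pair of the 9 genes over 23 libraries after removing group means. Mag and Cnp (0.959) and Mbp and Mag (0.926) are among the highest, and the Ermn row holds the lowest values, down to -0.0712 with Opalin.

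The genes whose profile was most like the mean of the 9 were found among 14164 other genes with a mean of at least 50 counts, by Pearson r over the 23 libraries after removing group means. Bcas1, a gene of newly myelinating oligodendrocytes, was first (r = 0.972), followed by 2810468N07Rik (0.927), Qdpr (0.913), which regenerates tetrahydrobiopterin, the potassium channel Kcnk13 (0.902), the carbonic anhydrase Car2 (0.900), Klhdc8a (0.896), the septin Sept4 (0.891), Plekhb1 (0.890), Csrp1 (0.884) and Desi1 (0.882). Over 0.8 were 81 genes (0.572%), among them 10 of the 30 other mature oligodendrocyte genes, whose median r was 0.736. The median r was 0.04 over all 14164 genes and -0.49 over the 10 precursor genes. For Bcas1 r was 0.973 (July), 0.976 (September) and 0.945 (all 24 libraries), whereas the r of Car2 was 0.333 with all 24 libraries.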

How the data were processed

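Hypothalamic RNA of 24 mice (1 library each) was measured by RNA-seq. From poly-A selected stranded libraries, the authors mapped paired reads with STAR (genome mm10), and featureCounts 1.6.4 assigned them to GENCODE vM22 genes. The authors deposited these as raw, unnormalized counts, beside gene positions and lengths. How strand was treated in the counting is not given in the sources used here. Gene symbols were taken from GENCODE vM21 (55144 of 55471 genes).

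Groups came from the sample labels. The test was the quasi-likelihood test of edgeR 4.0.16 (R 4.3.3), in one robust fit of the 4 groups over 23 libraries with TMM factors. The 18992 genes that passed filterByExpr (minimum count 10, minimum total 15) were tested, and an adjusted p (Benjamini-Hochberg) under 0.05 was a call. The left-out library, Control d14 replicate 4, was identified by matching mean expression to the study's supplementary means. Intervals are 95% intervals of the fit. Levels are CPM, and log2 CPM used a prior count of 2. Sums of marker lists used a scaling over all 24 libraries. Single genes were compared with two-sided exact permutation tests in log2 CPM, and correlations with 100000 shuffles within groups (Python 3.11.15, numpy 2.4.6, scipy 1.17.1). The lowest total of a library in the fit was 8928182 counts, and Opalin, the least abundant of the 9 genes, had at least 270 counts in each of these libraries.

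The 9 genes, the marker lists and the tests were chosen with earlier results of these data known. All 9 genes were named in each comparison, with Olig1, Olig2, Sox10, Myrf and Pdgfra, the gene of smallest unadjusted p of each lineage or peripheral myelin list on d14 and d14+3, and the 10 genes most alike, except 1 gene of the rule that is not reported here. Alternatives were DESeq2 1.42.0, other size factors and filters, all 24 libraries, only the 2 groups compared, covariates for RIN or for cohort and extraction round, a replicate block, each cohort alone, removal of each library's trend with gene length (spline with 5 degrees of freedom) and leaving out each library in turn. A covariate of 81 ribosomal protein genes was added after the data were seen. The scripts were tested on simulated data.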

Additional observations from a re-analysis of the deposited data

Results flagged for a closer look

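Over the 36 combinations of gene and group that were examined, 4 held a mouse far from the others of its group by Dixon's criterion, which chance meets in about 1 of 20 groups. In ExpOF d14, replicate 4 had the highest Mbp (2967 CPM, next 2586) and the highest Mobp (1049 CPM, next 934.2), and without it the log2 fold change of Mobp on d14 was -0.01 in place of 0.04. In ExpOF d14+3, replicate 3 had the lowest Opalin (18.52 CPM, next 32.87), and the d14+3 log2 fold change of Opalin without it was -0.15 in place of -0.27. In Control d14, replicate 5 had the highest Ermn (70.69 CPM, next 63.3).

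Control d14 replicate 4, the library that the comparisons do not use, had 3 of the 9 genes above every other library of its group, with CPM from a scaling of all 24 libraries. Mog stood at 126 CPM against at most 95.13 in the other 5 mice, Cnp at 678.9 CPM against at most 501.2, and Opalin at 88.96 CPM against at most 51.28. In the same library Ermn (38.23 CPM) and Cldn11 (90.7 CPM) were the lowest of all 24 libraries, while Mbp, at 3049 CPM, ranked 11 of 24.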

How the results depend on the processing

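For the 9 genes, 468 values were recomputed under the 13 alternatives other than leaving out a library, of which 448 had the direction and call reported, 18 turned direction and 2 passed the adjusted threshold. The 2 were Cldn11 in control mice between the days with the length trend removed (log2 fold change 0.30, adjusted p = 0.0464) and Mbp in ExpOF mice between the days with the ribosomal protein covariate (0.27, adjusted p = 0.0470). None of the 9 genes was called in the main fit, so a value that only shrank kept its label. With the ribosomal protein covariate, Cnp on d14 was at -0.01 in place of -0.16 and counted among the 448. Counts of genes called on d14 were 166 with DESeq2, 2 with the 2 groups alone and 0 within each cohort. On d14+3 they were 55 with DESeq2 and 26 with RIN as a covariate. Between the days in ExpOF mice they were 202 with DESeq2, 28 with at least 10 counts in every library, 123 with the 2 groups alone, 78 with cohort and extraction round and 851 with the ribosomal protein covariate, under which 1 of the 9 genes was called. In control mice they were 531 with DESeq2, 0 with the 2 groups alone, 0 within each cohort and 661 with the ribosomal protein covariate, and 1 of the 9 genes was called with the length trend removed. RIN slopes gave 3 calls with DESeq2, and the median slope of the 9 genes was -0.15 within the September and 0.15 within the July cohort. Of the values that turned direction, Opalin in control mice between the days was at 0.053 (RIN), 0.028 (July), 0.031 (September), 0.019 (length) and 0.030 (ribosomal covariate). With all 24 libraries, which put back the mouse inferred to be the one left out, the d14 values were -0.70 for Opalin (adjusted p = 0.0633 by edgeR), -0.34 for Mog, -0.31 for Cnp and 0.26 for Ermn, with none of the 9 called. In control mice between the days Mog was at -0.043 and Cnp at -0.021 in that fit, and on d14 Myrf was at 0.12 and Aspa at -0.0066. On d14 Mobp was at -0.043 and Aspa at -0.051 with the length trend removed, Aspa at -0.0044 with the count filter and -0.0035 with the 2 groups alone, and Myrf at 0.040 and Aspa at -0.033 in July. On d14+3 Olig2 was at 0.067 and Myrf at 0.065 in July, and Mobp at -0.062, Mal at -0.12 and Ermn at -0.16 in September. In September Ermn was at -0.032 between the days in ExpOF mice.

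With the ribosomal protein covariate, added after the data were seen, the median of the 9 genes was -0.010 on d14 and 0.015 on d14+3. On d14 Sox10 was at 0.024, Pdgfra at -0.036 and Aspa at -0.021. On d14+3 Mbp was at 0.039, Mog at 0.0019, Mag at 0.12, Cnp at 0.015, Ermn at -0.022, Olig1 at 0.23, Olig2 at 0.059, Sox10 at 0.092, Pdgfra at -0.12, Tppp at -0.11, Nkx6-2 at 0.17, Tmem163 at 0.11, C1ql1 at 0.12, Nkx2-2 at 0.019 and Fyn at 0.0067. The cause of these shifts was not tested.

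Leaving out each library in turn gave between 1 and 4220 genes and between 0 and 3 of the 9 genes called on d14, with 4220 and 3 only without Control d14 replicate 1. It gave 0 to 157 calls between the days in ExpOF mice, the highest without ExpOF d14+3 replicate 3, 24 to 313 in control mice, the lowest without Control d14 replicate 2 and the highest without Control d14+3 replicate 5, and 0 to 1 for the cohorts. On d14 Mobp lay between -0.0050 and 0.087, Cldn11 between -0.036 and 0.054, Myrf between -0.066 and 0.029 and Aspa between -0.037 and 0.041. On d14+3 Olig1 lay between -0.17 and 0.012, Myrf between -0.087 and 0.027 and Tmem163 between -0.086 and 0.013. Opalin in control mice between the days lay between -0.10 and 0.088.

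The labels number the mice of each group, but nothing says that a number marks a litter or a day, and deviations of mice of like number correlated between -0.23 and 0.22. With a replicate block 33 genes were called in control mice between the days and 5 for RIN, and Opalin in control mice (0.012) and Aspa on d14 (-0.00015) turned direction. It changed no call of the 9 genes. As for depth, Opalin, the least abundant of the 9, had at least 270 counts in every library of the fit.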
